A study of Mus musculus with 6 samples.

Results

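The genes described here make, break down or sense prostaglandins, and they were read in mouse C2C12 myotubes after knockdown of perilipin 2 (Plin2). The list held 10 genes: the cyclooxygenases Ptgs1 and Ptgs2, the synthases Ptgis, Ptges, Ptges2, Ptges3 and Ptgds, the degrading enzymes Hpgd and Ptgr1, and the receptor Ptger4. Of these, 9 had a probe set tied to 1 gene symbol, out of 19938 genes measured in that way. Ptgs1 had none in the annotation used and was not analysed here. The list was selected on the values of Hpgd, higher with Plin2 siRNA, and Ptgis, lower with it, in these same arrays, so the siRNA differences of its members are given as a description, with no test.

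The series had 6 arrays, 1 for each condition. Cells carrying Plin2 siRNA received palmitate, oleate or albumin (BSA) alone, and cells carrying a scrambled siRNA received the same 3 treatments. Every culture had been differentiated on a matrigel coating in 2% serum and transfected with 10 nM siRNA. Both fatty acids were bound to BSA and given at 200 µM for 20 h. C2C12 is a line of mouse myoblasts that fuse into multinucleated fibres when serum is lowered. All 6 arrays came from this single line, and the labels name no separate cultures. Any p-value therefore measures the spread between these arrays, which may be technical. With 1 array per condition, the fit of treatment and siRNA counts any change of the siRNA difference between treatments as spread.

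Prostaglandins are short-lived lipid signals made from arachidonic acid. Phospholipases free the arachidonic acid from membranes, cyclooxygenases turn it into prostaglandin H, and a terminal synthase turns that into prostaglandin E, D, F or prostacyclin. Cells respond through receptors coupled to G proteins, and the signal ends when 15-hydroxyprostaglandin dehydrogenase (Hpgd) oxidises the prostaglandin and a reductase acts on the product. In skeletal muscle, prostaglandin E acts on muscle stem cells through Ptger4, and prostaglandin F promotes growth of myotubes.

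Plin2 itself, which codes for a protein on the surface of lipid droplets, differed by -2.47 on the log2 scale (SE 0.08, n = 3 pairs of arrays). All values below are log2 expression values on the authors' scale. Differences are in log2 units, so that 1 unit is a factor of 2 and a positive value means higher in the group named first. The median signal of an array lay between 4.94 and 5.02. Each of the 10 markers of myotubes had values of 9.28 or more, among them Acta1, Ckm and Myog. Markers of fat cells stayed between 3.27 and 5.14, those of blood cells such as macrophages between 3.30 and 5.53, and those of endothelium between 3.25 and 5.69. Fibroblast markers spanned 2.48 to 11.92, with the collagen genes Col1a1 and Col3a1 at 9.85 or more in every array.

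With Plin2 siRNA, the inducible cyclooxygenase, prostacyclin synthase and the prostaglandin D synthase Ptgds were lower in every array than in any scrambled array, and the main degrading enzyme was higher in every array. In all, 6 of the 9 genes did not overlap between the siRNAs, 3 above and 3 below. Over all genes, the arrays of the siRNAs did not overlap in 30.4%. Because these genes were picked in this contrast, nothing is read from the count. The median difference over the 9 genes was 0.055, against 0.0044 over all genes, with 5 genes above 0 and 4 below. In bulk RNA, fewer cells that express a gene and less RNA per cell cannot be told apart.

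Ptgs2, the inducible cyclooxygenase, had 8.34 with palmitate, 8.45 with oleate and 8.55 with BSA in Plin2 siRNA cells, against 9.67, 9.24 and 9.31 with the same treatments in scrambled siRNA cells. The Plin2 siRNA arrays lay close together and below all scrambled arrays, and scrambled palmitate was the highest of the 6. The difference averaged -0.96 (SD 0.32, n = 3 pairs), a 1.95-fold lower level. It was -1.34 with palmitate, -0.79 with oleate and -0.76 with BSA.

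Ptgis makes prostacyclin, a prostanoid best known for widening vessels and restraining platelets. Its values were 7.20 with palmitate, 7.30 with oleate and 7.42 with BSA in Plin2 siRNA cells, against 9.97, 9.98 and 10.08 in scrambled siRNA cells. The gap was wide and even: the difference averaged -2.70 (SD 0.06, n = 3 pairs), a 6.51-fold lower level. Among 19938 genes, 3 fell by more, a rank that describes a gene picked for its fall. The gene lies at chr2:167203194-167252150 in the GRCm38.p6 assembly.

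Ptgds is the lipocalin-type prostaglandin D synthase, which also carries small lipophilic molecules. It had 6.90 with palmitate, 6.60 with oleate and 6.90 with BSA in Plin2 siRNA cells, against 7.52, 7.88 and 7.72 in scrambled siRNA cells. The groups were apart, with the widest gap at oleate (-1.28) and the narrowest at palmitate (-0.61). The mean difference was -0.91 (SD 0.34, n = 3 pairs).

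The 3 prostaglandin E synthases had no common direction. Ptges, the inducible synthase of the membrane, had values between 3.90 and 4.33 in all 6 arrays, below the array medians, and its siRNA groups overlapped (mean difference -0.20). Ptges2, the other membrane-associated synthase, had 8.05 with palmitate, 8.12 with oleate and 8.00 with BSA in Plin2 siRNA cells, against 7.78, 7.83 and 7.94 in scrambled siRNA cells. The groups did not overlap, but the nearest arrays were 0.06 apart, both of them BSA arrays. Ptges3, the cytosolic synthase that is also the p23 partner of the chaperone Hsp90, had 12.24, 12.09 and 12.14 in Plin2 siRNA cells with palmitate, oleate and BSA, against 12.02, 12.21 and 12.07 in scrambled siRNA cells. These overlapped. Ptges3 has 3 probe sets, with siRNA differences of 0.05, 0.06 and 0.07, and the one with the highest mean is used here. They were less alike for the fatty acids. In the same order, oleate minus BSA was 0.04, 0.31 and 0.05, and palmitate minus BSA was 0.02, 0.19 and 0.01.

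Hpgd, which inactivates prostaglandins by oxidising their 15-hydroxyl group, went the other way from Ptgs2 and Ptgis. It had 6.97 with palmitate, 7.74 with oleate and 7.26 with BSA in Plin2 siRNA cells, against 5.00, 5.36 and 4.51 in scrambled siRNA cells. The lowest Plin2 siRNA array was above the highest scrambled one by more than 1 unit. The mean difference was 2.37 (SD 0.39, n = 3 pairs), a 5.16-fold higher level. In all, 5 genes rose by more, a rank that describes a gene picked for its rise. The scrambled BSA value was below the array medians of 4.94 to 5.02 and scrambled palmitate was among them. The size of the difference is therefore less certain. The difference was 1.97 with palmitate, 2.37 with oleate and 2.75 with BSA. The gene lies at chr8:56294552-56321046 in the same assembly.

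Ptgr1, a reductase that acts on the products of Hpgd and on leukotriene B4, had 8.10 with palmitate, 8.20 with oleate and 8.02 with BSA in Plin2 siRNA cells, against 8.07, 8.03 and 7.70 in scrambled siRNA cells. The groups overlapped, and the lowest value was scrambled BSA. Ptger4, a prostaglandin E receptor that raises cyclic AMP, had 7.63, 7.59 and 7.84 in Plin2 siRNA cells with palmitate, oleate and BSA, against 7.57, 7.33 and 7.14 in scrambled siRNA cells. Its groups were apart by 0.02 only. Its siRNA difference was 0.06 with palmitate, 0.25 with oleate and 0.71 with BSA.

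**Figure D1:**
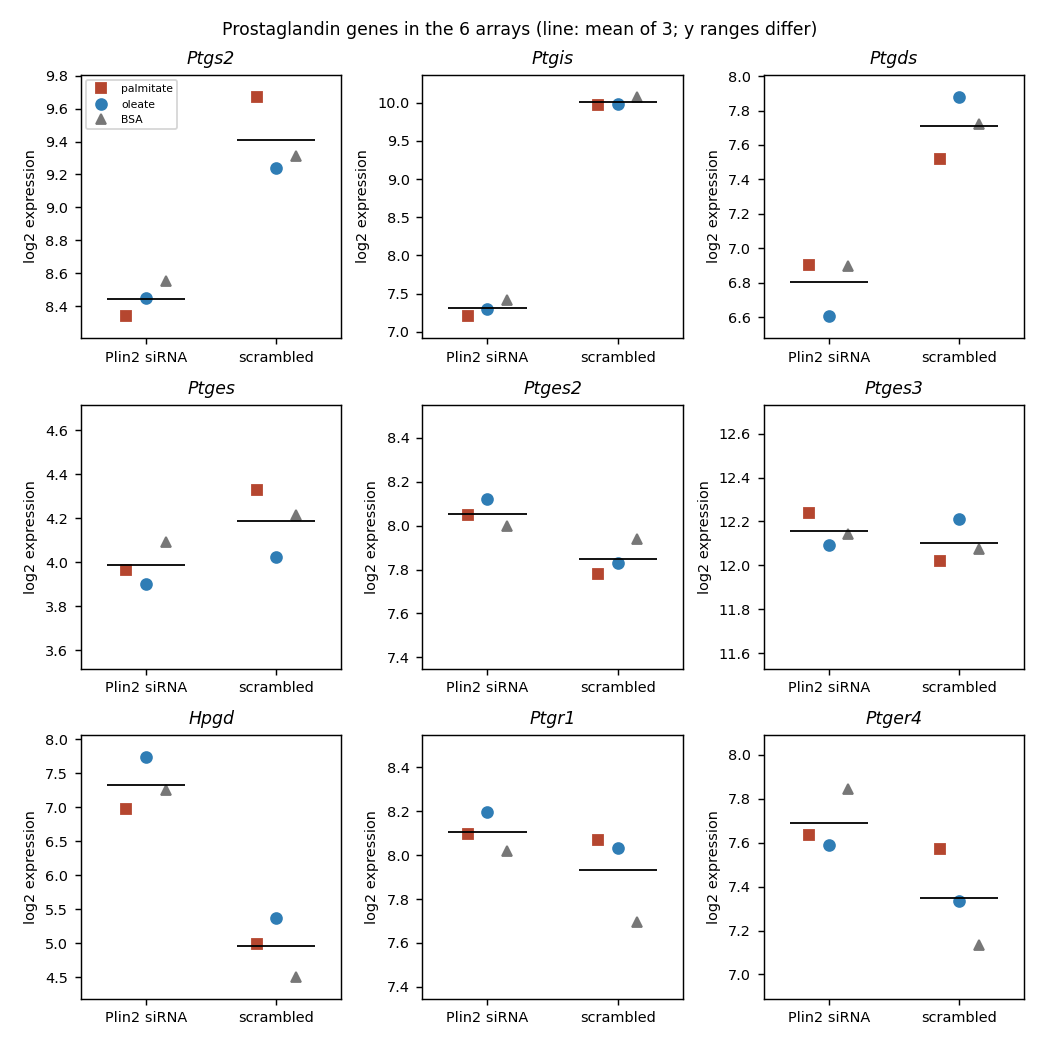
Log2 expression (y axis, with a range of its own in each panel) of the 9 genes in the 6 arrays, with Plin2 siRNA left of scrambled siRNA; each point is 1 array, the symbol gives the treatment, and the line is the mean of 3 arrays. Ptgs2, Ptgis and Ptgds lie lower and Hpgd higher in all Plin2 siRNA arrays, and Ptges, Ptges3 and Ptgr1 overlap.

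**Figure D2:**
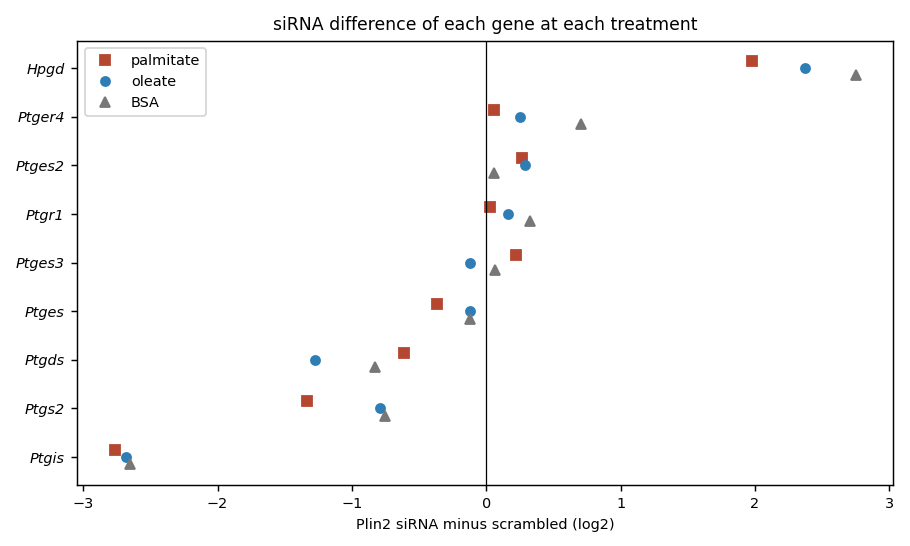
Plin2 siRNA minus scrambled siRNA (x axis, log2) for each gene, with 1 point per treatment. The points of Ptgis lie within 0.11 of each other, while those of Hpgd run between 1.97 and 2.75.

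The promoters of Ptgs2, Hpgd and Ptgds are shown because these are the genes with the largest siRNA differences that have an entry in the RefSeq promoter table; Ptgis is named only. Each sequence runs 5′ to 3′ over 300 bases, 250 before the annotated start and 50 after it, on GRCm38.p6. Capitals mark the E-box letters CANNTG, a pattern that reads the same on both strands. They also mark the core of the cyclic AMP response element, TGACG or on the other strand CGTCA. Muscle factors such as Myog and Myod1 bind some E-boxes, and binding to these was not tested.
Ptgs2, chr1:150099781-150100080, plus strand: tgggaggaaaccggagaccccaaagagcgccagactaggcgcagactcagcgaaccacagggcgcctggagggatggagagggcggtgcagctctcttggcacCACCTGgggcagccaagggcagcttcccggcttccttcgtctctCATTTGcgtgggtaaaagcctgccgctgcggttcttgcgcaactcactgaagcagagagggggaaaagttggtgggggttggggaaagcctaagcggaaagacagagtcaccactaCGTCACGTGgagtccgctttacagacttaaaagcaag
Hpgd, chr8:56294302-56294601, plus strand: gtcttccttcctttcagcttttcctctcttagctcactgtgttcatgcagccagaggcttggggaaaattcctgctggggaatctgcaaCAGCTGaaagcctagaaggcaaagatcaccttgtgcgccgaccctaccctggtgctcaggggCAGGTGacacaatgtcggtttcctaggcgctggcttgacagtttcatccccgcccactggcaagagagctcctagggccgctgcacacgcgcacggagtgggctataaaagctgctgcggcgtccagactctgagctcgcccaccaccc
Ptgds, chr2:25469700-25469999, minus strand: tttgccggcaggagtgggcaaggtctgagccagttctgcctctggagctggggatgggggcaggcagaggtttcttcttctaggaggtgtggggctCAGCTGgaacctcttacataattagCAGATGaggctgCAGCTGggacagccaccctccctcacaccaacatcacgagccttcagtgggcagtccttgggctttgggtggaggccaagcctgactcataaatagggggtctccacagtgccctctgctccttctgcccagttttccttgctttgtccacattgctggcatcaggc
Ptgs2 held 3 E-boxes and 1 cyclic AMP core, which shares 2 bases with the last E-box and begins 13 bases after the annotated start. Hpgd held 2 E-boxes, at 161 and 99 bases before the start, and Ptgds held 3; neither held the cyclic AMP core. E-box letters occur in 72.3% and the core in 20.8% of the 32851 promoter entries of the same length, so these matches are a description only.

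The genes whose pattern over the 6 arrays was most like that of Hpgd were the integrin subunit Itga4 (Pearson r = 0.996), the muscle transcription factor Myf6 (0.993), the interferon-induced GTPase Gbp4 (0.989), the guidance receptor Robo2 (0.989) and tissue factor F3 (0.988). All 5 shared the order of treatments in both groups. Itga4, for example, had 6.15 with palmitate, 6.87 with oleate and 6.49 with BSA in Plin2 siRNA cells, against 4.95, 5.22 and 4.71 in scrambled siRNA cells. For Ptgis they were Tppp3 (0.999), the potassium channel Kcnn4 (0.998), the ubiquitin ligase adaptor Klhl40 (0.997), the nucleoporin Nup88 (0.997) and the lactate transporter Slc16a3 (0.997). These were taken from 340 genes with an SD of at least 0.5. The coefficients are descriptions over 6 arrays and mostly restate the step between the siRNAs.

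The fatty acid differences were not used to choose the genes and were tested. None of the 9 passed the threshold of an adjusted p of 0.05 with limma for palmitate, for oleate or between the fatty acids. The share of all genes past it was 0.01% for palmitate, 0.0802% for oleate and 0.281% for palmitate minus oleate. At an unadjusted p under 0.05 there were 1, 2 and 1 of the 9 genes, against 1037, 1241 and 1818 of all 19938 genes. The Ptges3 probe set of lowest mean is not among these counts. In limma it had an unadjusted p of 0.031 for palmitate (adjusted p = 0.94) and 0.0021 for oleate (adjusted p = 0.35). The median difference over the 9 genes was 0.022 with palmitate, against -0.0073 over all genes, and -0.029 with oleate, against -0.017 over all genes.

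Hpgd had the estimate furthest from 0 of the 9 genes for oleate minus BSA and for palmitate minus oleate, and Ptgr1 for palmitate minus BSA. Hpgd was higher with oleate than with BSA by 0.48 in Plin2 siRNA cells and by 0.86 in scrambled siRNA cells, an estimate of 0.67 (95% interval 0.30 to 1.04, n = 2 pairs of arrays, adjusted p = 0.35). Without the scrambled palmitate array, which carries no information on oleate but leaves a different estimate of the spread, the adjusted p was 0.048 at the same 0.67. With only the oleate and BSA arrays in the fit, 0 of the 9 genes passed for this comparison. Without the Plin2 siRNA BSA array the oleate minus BSA estimate of Hpgd was 0.96, and without the scrambled siRNA BSA array it was 0.38. Between the fatty acids, palmitate minus oleate was -0.77 in Plin2 siRNA cells and -0.37 in scrambled siRNA cells, an estimate of -0.57 (95% interval -0.94 to -0.20, adjusted p = 0.33). It was -0.28 without the Plin2 siRNA palmitate array and -0.86 without the scrambled siRNA palmitate array. Palmitate minus BSA was -0.29 in Plin2 siRNA cells and 0.49 in scrambled siRNA cells.

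With the probe sets used, Ptgr1 was the only one of the 9 genes above BSA with both fatty acids and both siRNAs. This pattern was found in 8.73% of all genes. The limma estimates of Ptgr1 were 0.23 with palmitate (95% interval 0.0029 to 0.45, adjusted p = 0.94) and 0.26 with oleate (0.04 to 0.48, adjusted p = 0.72). The Ptges3 probe set of lowest mean, not used here, was also above BSA in each of these comparisons. It differed by 0.16 (Plin2 siRNA) and 0.22 (scrambled siRNA) with palmitate, and by 0.30 and 0.31 with oleate. Ptgis kept within a narrow band, at -0.16 with palmitate (-0.35 to 0.02) and -0.11 with oleate (-0.30 to 0.08). For Ptgs2, palmitate minus oleate was -0.11 in Plin2 siRNA cells and 0.43 in scrambled siRNA cells, an estimate of 0.16 (-0.12 to 0.44, adjusted p = 0.78). Without the Plin2 siRNA palmitate array the estimate was 0.44 with an adjusted p of 0.046, with palmitate then measured in scrambled siRNA cells only.

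**Figure D3:**
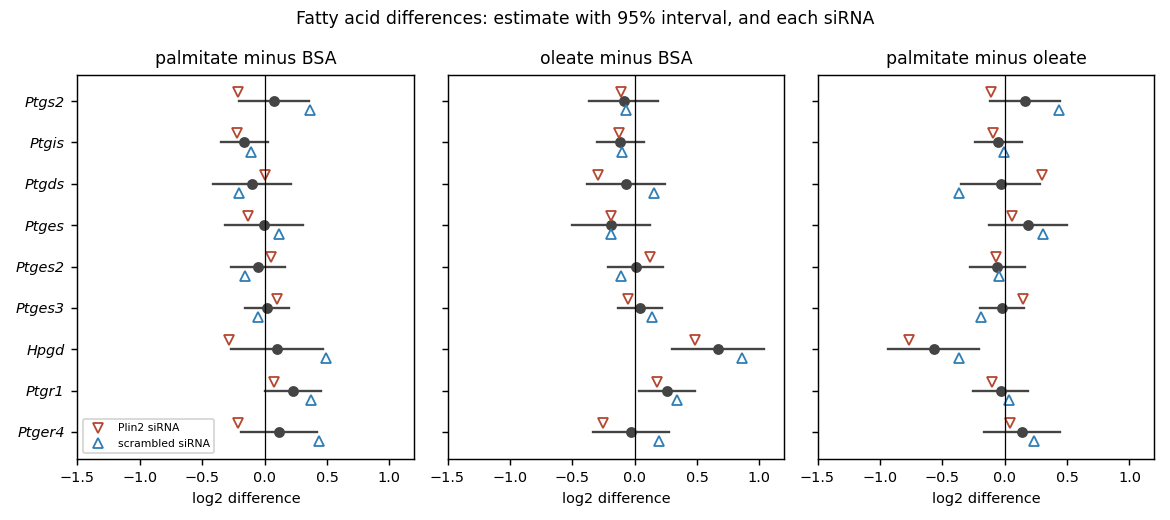
Palmitate minus BSA, oleate minus BSA and palmitate minus oleate (x axes, log2) for the 9 genes; dots are limma estimates with 95% intervals, and open triangles are the differences within Plin2 siRNA and within scrambled siRNA cells, 1 array against 1. The intervals of Hpgd lie off 0 for oleate minus BSA and for palmitate minus oleate, those of Ptgr1 for both fatty acids against BSA, and no gene passed the adjusted threshold.

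Whether the siRNA difference was itself different with fatty acid was tested with an interaction term, which left 1 residual degree of freedom. The term pooled palmitate and oleate against BSA, so a change with 1 fatty acid only goes partly into its error. No gene of the array passed, among them 0 of the 9, while 511 of all genes and 2 of the 9 had an unadjusted p under 0.05. These 2 were Hpgd, whose scrambled BSA value of 4.51 was below the array medians, and Ptger4. For Hpgd the siRNA difference was smaller with fatty acid by 0.58 (interaction -0.58, 95% interval -1.13 to -0.02, adjusted p = 1.00). For Ptger4 the interaction was -0.55 (-0.99 to -0.11, adjusted p = 1.00).

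Outside the list, 84 other measured genes of arachidonic acid metabolism and of the response to cyclic AMP were tested for the siRNA difference. With Plin2 siRNA 6 rose and 13 fell, which is 7.14% and 15.5% of them, against 8.31% and 8.8% of all genes. The median over the 84 was -0.08, against 0.0044 over all genes. These gene lists were written with earlier results of these data known, so the counts are a description of the pathway and not independent evidence. In the alternatives run, 12 of these 19 genes passed each time. Akr1b8 lost the call in 7 of them, Sik1 in 6, Fosb and Prxl2b in 5 each, Pla2g7 in 4, Akr1c14 in 3 and Anxa1 in 1. When unnamed probe sets joined the fit, the number that fell was 9. The number that rose was 3 without either BSA array and 3 when unnamed probe sets joined the fit.

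Of 19 genes listed for the release and supply of arachidonic acid, 1 rose and 3 fell, where 8.31% and 8.8% of all genes did. The list mixes genes of different roles, so the count gives no direction of supply. The one that rose was Pla2g6, a calcium-independent phospholipase, with 8.53 with palmitate, 8.42 with oleate and 8.52 with BSA in Plin2 siRNA cells, against 7.75, 7.75 and 8.04 in scrambled siRNA cells (0.64, SE 0.08, adjusted p = 2.6e-04). Acsl4, the acyl-CoA synthetase that prefers arachidonic acid, fell by 0.47 (adjusted p = 4.9e-04), and so did annexin Anxa1 by 0.42 (adjusted p = 0.0030) and the phospholipase Pla2g7, which hydrolyses platelet-activating factor, by 0.52 (adjusted p = 0.042). Pla2g7 was at -0.27 (adjusted p = 0.23) without either palmitate array. The cytosolic phospholipase Pla2g4a, the usual source for cyclooxygenase, stood at -0.04 (adjusted p = 0.89).

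Of 10 other prostanoid synthases and reductases, 2 rose and 2 fell, where 8.31% and 8.8% of all genes did. Cbr2, a carbonyl reductase, had 9.65 with palmitate, 9.38 with oleate and 9.40 with BSA in Plin2 siRNA cells, against 10.34, 9.87 and 10.13 in scrambled siRNA cells (-0.63, SE 0.07, adjusted p = 8.2e-05). Prxl2b, a prostaglandin F synthase, fell by 0.37 (adjusted p = 0.041). The aldo-keto reductases Akr1c14 (0.72, adjusted p = 0.011) and Akr1b8 (0.24, adjusted p = 0.032) rose. Akr1c14 signals were low, at 4.44 to 5.16 in Plin2 siRNA arrays and 3.79 to 4.22 in scrambled arrays, the latter all below the array medians. Without either BSA array Akr1c14 was at 0.47 (adjusted p = 0.094 without Plin2 siRNA BSA and 0.098 without scrambled BSA). Hpgds, the haematopoietic prostaglandin D synthase, had values of 3.11 to 3.40 in the 6 arrays, and thromboxane synthase Tbxas1 had 3.73 to 3.98. In limma, 0 of 8 genes of prostaglandin breakdown and transport outside the list passed, with 1 at an unadjusted p under 0.05, against 5463 of all 19938 genes. They include Ptgr2 (0.14, adjusted p = 0.35), a reductase of the same step as Ptgr1, and the uptake carrier Slco2a1 (-0.12, adjusted p = 0.62). Of 8 genes of the epoxygenase branch 0 passed, with 2 at an unadjusted p under 0.05, a share near that of all genes.

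Among 9 receptors and receptor-binding proteins outside the list, 1 rose and 1 fell, where 8.31% and 8.8% of all genes did. Ptgfr, the receptor of prostaglandin F, had 8.17 with palmitate, 8.73 with oleate and 8.34 with BSA in Plin2 siRNA cells, against 7.43, 8.15 and 7.55 in scrambled siRNA cells. The groups did not overlap, and oleate gave the highest value in each. The siRNA difference was 0.70 (SE 0.08, n = 3 pairs, adjusted p = 1.0e-04). Ptgfrn, a membrane protein that binds this receptor and inhibits ligand binding to it, had 9.49, 9.53 and 9.47 in Plin2 siRNA cells with palmitate, oleate and BSA, against 10.13, 10.25 and 10.20 in scrambled siRNA cells. It fell by 0.70 (SE 0.06, adjusted p = 2.0e-05). The prostacyclin receptor Ptgir stood at -0.20 (adjusted p = 0.33), with values between 4.59 and 4.96.

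Ptgfr was also the only one of these 84 genes to pass in a comparison of treatments. Palmitate minus oleate was -0.57 in Plin2 siRNA cells and -0.73 in scrambled siRNA cells, an estimate of -0.65 (SE 0.10, n = 2 pairs, adjusted p = 0.026), against 0.281% of all genes called. Against BSA, it stood at -0.15 with palmitate (adjusted p = 0.97) and at 0.50 with oleate (adjusted p = 0.15). Between the fatty acids the adjusted p was 0.30 when the intensity trend was dropped, 0.50 when unnamed probe sets joined the fit, 0.054 when arrays were quantile normalized and 0.11 when scrambled palmitate was left out, so each of these ended the call. Hpgd shared the order of treatments within Plin2 siRNA cells, with oleate above BSA and palmitate below it.

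**Figure D4:**
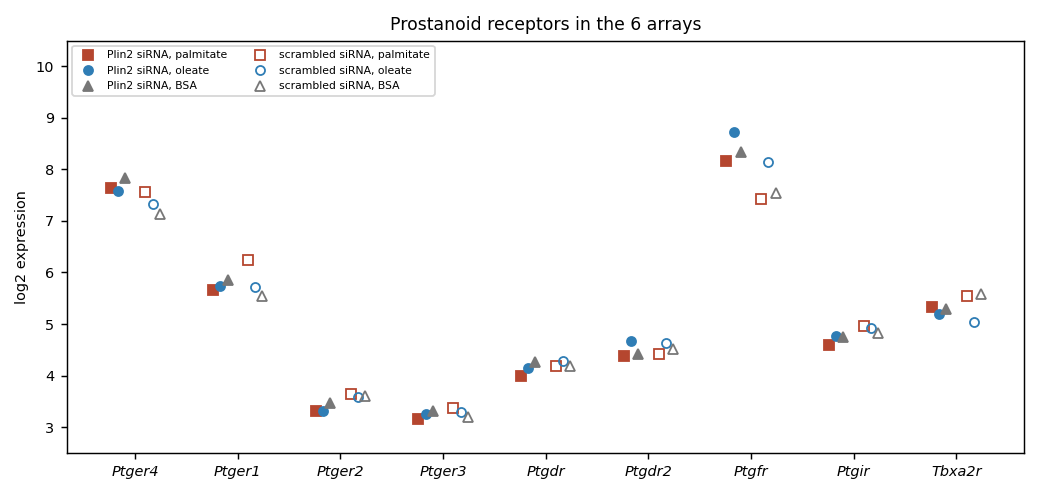
Log2 expression (y axis) of Ptger4 and the other prostanoid receptors in the 6 arrays, with filled symbols for Plin2 siRNA left of open symbols for scrambled siRNA and the symbol's shape and colour for the treatment; levels of different genes are not compared. Ptgfr is higher in the Plin2 siRNA arrays and higher with oleate than with palmitate for each siRNA.

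In the lipoxygenase branch, which makes leukotrienes from the same arachidonic acid, 3 of 16 genes fell and 0 rose. Of all genes, 8.8% fell and 8.31% rose. The 5-lipoxygenase Alox5 had 7.83 with palmitate, 7.91 with oleate and 7.85 with BSA in Plin2 siRNA cells, against 8.60, 8.41 and 8.76 in scrambled siRNA cells (-0.73, SE 0.09, adjusted p = 1.9e-04). Its activating protein Alox5ap had 5.32, 5.49 and 5.46 in Plin2 siRNA cells, against 6.14, 6.16 and 6.26 in scrambled siRNA cells (-0.77, SE 0.10, adjusted p = 4.1e-04). For both genes every Plin2 siRNA array was below every scrambled array. The dipeptidase Dpep1, which converts leukotriene D4, fell by 2.47 (SE 0.17, adjusted p = 2.7e-06). It had 5.15 with palmitate, 4.52 with oleate and 4.38 with BSA in Plin2 siRNA cells. In scrambled siRNA cells it had 7.31, 6.67 and 7.48. The Plin2 siRNA values with oleate and BSA were below the array medians of 4.94 to 5.02, so the size of the fall is less certain. The remaining step enzymes did not pass: Lta4h stood at 0.07 (adjusted p = 0.78) and Ltc4s at -0.40 (adjusted p = 0.071).

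Of 14 genes that respond to or shape cyclic AMP signals, 2 rose and 4 fell, where 8.31% and 8.8% of all genes did. Nr4a1, an early-response nuclear receptor, had 7.50 with palmitate, 7.76 with oleate and 7.57 with BSA in Plin2 siRNA cells, against 8.44, 8.65 and 8.28 in scrambled siRNA cells (-0.85, SE 0.08, adjusted p = 3.0e-05). The early-response genes Fos (-0.84, adjusted p = 1.9e-04) and Fosb (-0.47, adjusted p = 0.020) and the phosphatase Dusp1 (-0.80, adjusted p = 5.8e-04) fell with it. These early genes also answer to serum, stress and growth factors, as does Ptgs2. The phosphodiesterase Pde4b, which breaks down cyclic AMP, rose by 0.66 (adjusted p = 7.4e-04), and the kinase Sik1 rose by 0.28 (adjusted p = 0.016). Crem stood at -0.11 (adjusted p = 0.61), Nr4a2 at -0.20 (adjusted p = 0.46) and Per1 at -0.02 (adjusted p = 0.96).

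**Figure D5:**
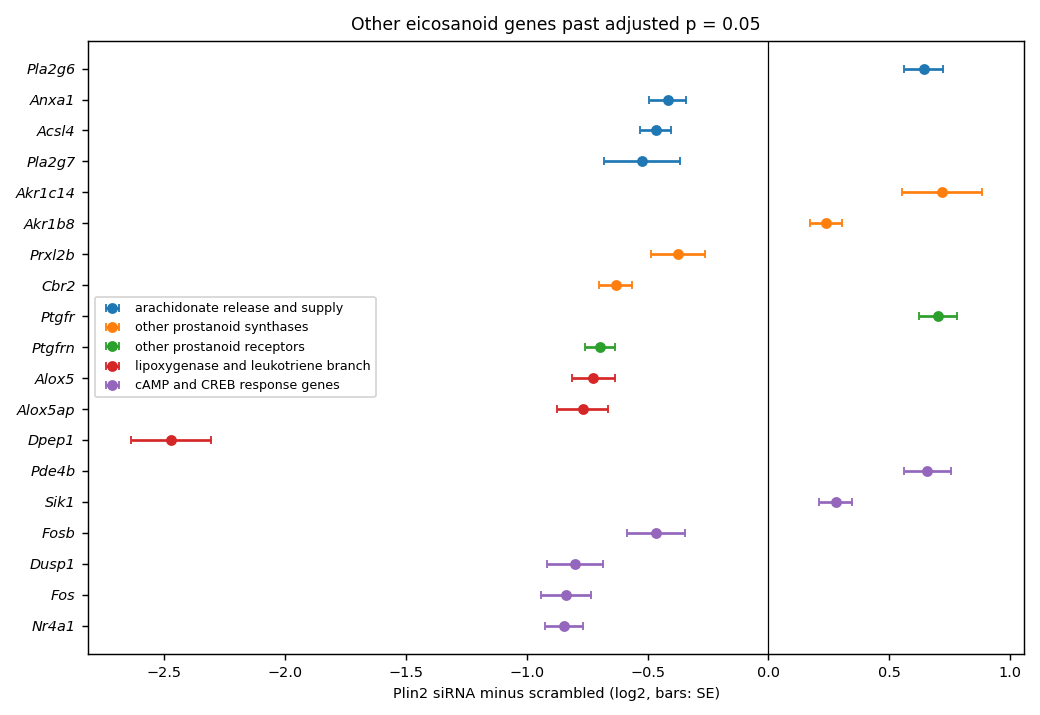
Plin2 siRNA minus scrambled siRNA (x axis, log2; dots are limma estimates and bars SE) for the 19 other eicosanoid and cyclic AMP genes past an adjusted p of 0.05, coloured by list. Dpep1 lies furthest below 0 at -2.47, and Akr1c14 (0.72), Ptgfr (0.70), Pde4b (0.66) and Pla2g6 (0.64) lie furthest above it.

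Markers of muscle maturation moved beside these genes. Over all genes, 8.31% rose and 8.8% fell with Plin2 siRNA. Of 10 myotube markers, 7 fell and 0 rose with Plin2 siRNA (median -0.26), and their mean level lay between 11.62 and 11.65 in Plin2 siRNA arrays, against 11.75 to 11.98 in scrambled arrays. Of 7 markers of undifferentiated myoblasts, 4 rose and 1 fell (median 0.42), with a mean level of 9.20 to 9.34 in Plin2 siRNA arrays, against 8.85 to 9.02 in scrambled arrays. Myog, which binds E-boxes, fell by 0.69 (adjusted p = 6.6e-06), and Myod1 rose by 0.46 (adjusted p = 1.6e-04). Other markers went the other way. The myoblast marker that fell was Cdh15, by 0.62 (limma adjusted p = 4.4e-05), and Vcam1 stood at -0.25 (limma adjusted p = 0.057). The myotube markers Chrna1 (0.19), Acta1 (0.05) and Ttn (0.05) lay above 0 without passing. Among the other cell types, 1 of 7 fibroblast markers rose (Pdgfra, 0.36, adjusted p = 0.028), 1 of 6 macrophage and blood cell markers fell (Cd68, -0.53, adjusted p = 0.0086), and 0 of 5 fat cell and 0 of 6 endothelial markers passed in limma, with 0 and 1 at an unadjusted p under 0.05. Nothing is read from these single calls, given the shares of all genes. The part of the marker shifts in the prostaglandin genes was not tested.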

How the data were processed

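RNA of C2C12 cells under 6 conditions was measured on Affymetrix whole-transcript arrays, 1 per condition. The deposited values are log2 expression values, made by the authors with RMA (background correction, normalization between arrays, summary per probe set), per the submitters' processing notes; the version of RMA is not given in the sources used here, nor is a genome build. The log base was read from RMA and from the values, which run from 1.58 to 14.40. They were used as deposited. The platform annotation tied 21789 of 35556 probe sets to 1 symbol, 1621 to several and did not list 12146. Where a gene has several probe sets, the one of highest mean stands for it.

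limma 3.58.1 in R 4.3.3 fitted treatment and siRNA to the 21789 probe sets (eBayes with intensity trend), leaving 2 residual degrees of freedom plus 9.21 borrowed across probe sets. P-values were adjusted by Benjamini-Hochberg over these, with a threshold of 0.05. The number of arrays limits precision. Members and gene lists were chosen with earlier results of these data known. Named genes were all members, list genes past the threshold, and the 5 most like Hpgd and Ptgis; those named below the threshold were chosen after their values were seen. Alternatives changed the trend, probe sets, normalization, centring, low-signal filter, probe set per gene and arrays. Promoters and gene positions are RefSeq's.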

Additional observations from a re-analysis of the deposited data

Results flagged for a closer look

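With Ptger4, both fatty acids lay above BSA in scrambled siRNA cells and below it in Plin2 siRNA cells. Palmitate minus BSA was -0.21 in Plin2 siRNA cells and 0.44 in scrambled siRNA cells, and oleate minus BSA was -0.26 in Plin2 siRNA cells and 0.20 in scrambled siRNA cells. The interaction was -0.55 (limma adjusted p = 1.00). Ptges2 showed the opposite pattern: palmitate minus BSA was 0.05 in Plin2 siRNA cells and -0.16 in scrambled siRNA cells, and oleate minus BSA was 0.12 in Plin2 siRNA cells and -0.11 in scrambled siRNA cells, with an interaction of 0.22 (limma adjusted p = 1.00). Such opposite signs occurred in 2 of the 9 genes and in 17.6% of all genes, and within an siRNA both differences share 1 BSA array.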

How the results depend on the processing

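The count of 0 prostaglandin genes past the threshold held for palmitate minus BSA and for the interaction in each alternative run. Leaving out 1 array at a time gave 0 to 1 for oleate minus BSA (Hpgd, without scrambled palmitate) and 0 to 1 for palmitate minus oleate (Ptgs2, without Plin2 siRNA palmitate). The interaction could not be tested without 1 array, since no residual degree of freedom is left. The median siRNA difference of 0.05 ranged from -0.027 to 0.14 across arrays left out. The count of other pathway genes that rose was 3 when unnamed probe sets joined the fit and 3 to 6 with arrays left out, against 6. Signs turned for fatty acid differences near 0, none of them past the threshold. Leaving out arrays, Ptgs2 ranged from -0.24 to 0.065 for oleate, -0.21 to 0.35 for palmitate and -0.12 to 0.44 between the fatty acids. Ptges ranged from -0.13 to 0.12 for palmitate. Ptges2 ranged from -0.10 to 0.12 for oleate, -0.16 to 0.058 for palmitate and -0.12 to 0.0041 between the fatty acids. Ptges3 ranged from -0.088 to 0.18 for oleate, -0.10 to 0.14 for palmitate and -0.15 to 0.11 between the fatty acids, and was 0.012 between the fatty acids after quantile normalization and 0.028 for the interaction after centring. Hpgd ranged from 0.38 to 0.96 for oleate and -0.19 to 0.39 for palmitate, and Ptgr1 from -0.14 to 0.077 between the fatty acids. Ptger4 ranged from -0.30 to 0.25, -0.16 to 0.39 and -0.069 to 0.35, and Ptgds from -0.35 to 0.21, -0.32 to 0.12 and -0.31 to 0.25, for oleate, palmitate and palmitate minus oleate in turn. The cause of these shifts was not tested. No paired analysis by replicate number was possible because each condition has 1 array and the labels give no such numbers; the fit itself pairs arrays by treatment for the siRNA difference and by siRNA for the fatty acid differences. Signals near the low end, such as Ptges, are the least certain, and the filter on low signal removed Ptges. The filter kept Hpgd, whose scrambled values of 4.51 to 5.36 lay around the array medians.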
